A study of Mus musculus with 6 samples.

Results

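Genes induced by interferon and genes of the MHC class I pathway were measured in cultured mesenchymal cells, the fibroblasts and muscle-related cells that underlie the lining of the gut. They were taken from a list of 33 symbols, all of which have a row among the 23329 genes of the deposited tables. Of these, 27 are interferon-induced genes and 6 serve antigen presentation on MHC class I (Psmb8, Psmb9, Tap1, B2m, H2-K1 and H2-D1). The study compared 3 cultures from the small intestine of mouse embryos at embryonic day 14.5 (E14.5) with 3 cultures from adult mice, all of strain C57. Cells of both groups were grown in serum with the ROCK inhibitor Y27632, and RNA was taken at passage 2 to 3. The labels give neither the age of the adults nor the number of animals behind each group. The p-values here therefore weigh group differences against the spread between these cultures, which may not be the spread between animals. The labels name no sort that would remove other cell types, and the adult villi were scraped off before digestion while embryonic gut was cut into pieces. PBS appears in the name of every table, and no label says what it stands for.

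Interferons are secreted proteins that warn cells of viral infection. Type I interferon acts through its receptor and the kinases JAK1 and TYK2 to form a complex with STAT2 and IRF9 that binds the interferon-stimulated response element (ISRE) of its target genes, and interferon gamma acts at a different element, the gamma-activated site (GAS). The induced proteins sense foreign RNA, block viral replication, or supply peptides for MHC class I, the complex of a heavy chain with beta-2-microglobulin that shows fragments of cytosolic proteins to T cells. In uninfected tissue many of these genes keep a low, tonic level, and fibroblasts and macrophages both use the pathway.

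The promoters show which members carry the element that joins them. RefSeq windows on GRCm38.p6, from 250 bases before to 50 bases after a transcript start, were matched for 27 of the 33 members (none for Dhx58, Mx1, Mx2, Parp14, Rtp4 and Usp18). The ISRE core was searched as GAAANNGAAA on both strands, and 12 of 21 interferon-induced members and 1 of 6 MHC class I members had a match in at least 1 of their windows. Counted the same way, 1079 of all 27025 genes with such windows had one (3.99%). The GAS core was searched as TTCNNNGAA, a palindrome, and 6 of 27 members had a match (Oas1a, Bst2, Irf1, Ifi35, Psmb8 and Ifit2), against 2582 of all 27025 genes (9.55%). Overlapping matches of a motif count once per window. A match describes letters only, and the absence of one says only that these letters are not in the window.

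The stretches below are the 160 bases before the start of Ifit3, Ifit1, Isg15 and Oas1a, shown because Ifit3 and Oas1a had the largest fitted differences in each direction and Ifit1 and Isg15 lay on the side of Ifit3, and of B2m, the MHC class I member with a match. Each is given 5′ to 3′ on the strand of its gene, with bases of an ISRE core in capitals. Ifit3 lies at chr19:34583369-34583528 (plus), Ifit1 at chr19:34640729-34640888 (plus), Isg15 at chr4:156200819-156200978 (minus), Oas1a at chr5:120907526-120907685 (minus) and B2m at chr2:122147527-122147686 (plus).
Ifit3: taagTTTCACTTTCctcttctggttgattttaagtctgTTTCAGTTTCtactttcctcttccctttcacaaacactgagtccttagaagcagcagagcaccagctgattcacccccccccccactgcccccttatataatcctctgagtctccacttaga
Ifit1: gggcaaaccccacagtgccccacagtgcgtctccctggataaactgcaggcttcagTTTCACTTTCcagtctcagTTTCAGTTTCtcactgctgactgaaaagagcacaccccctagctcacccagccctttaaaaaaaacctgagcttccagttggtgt
Isg15: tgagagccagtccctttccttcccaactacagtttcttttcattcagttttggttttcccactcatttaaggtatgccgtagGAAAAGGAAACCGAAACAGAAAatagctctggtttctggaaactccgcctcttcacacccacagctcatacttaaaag
Oas1a: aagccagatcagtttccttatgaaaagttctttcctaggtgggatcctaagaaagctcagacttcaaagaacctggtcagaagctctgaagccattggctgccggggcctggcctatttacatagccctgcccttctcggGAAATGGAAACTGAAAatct
B2m: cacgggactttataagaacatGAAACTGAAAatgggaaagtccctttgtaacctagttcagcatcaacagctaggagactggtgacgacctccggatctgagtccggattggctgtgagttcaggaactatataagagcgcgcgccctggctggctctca
Ifit3 and Ifit1 thus hold 2 cores each, Isg15 a run of 3 overlapping cores and Oas1a a run of 2, and the fitted differences of these genes, given below, had both signs.

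Between 30430596 and 32672370 reads per E14.5 library, and between 18850224 and 29903594 per adult library, were assigned to genes. Of the mesenchymal markers, all 14 had counts in every library and summed to 26952 to 40481 CPM in E14.5 cells and 24532 to 37209 CPM in adult cells (CPM, read counts scaled to a common library total by the TMM method). Epithelial markers summed to at most 1.76 CPM in E14.5 cells and 1.02 CPM in adult cells. Macrophage and leukocyte markers (18 genes) summed to 294, 533 and 3402 CPM in the E14.5 cultures and to 218, 27.3 and 56.3 CPM in the adult cultures, in the order of replicates 1, 2 and 3 used throughout. No marker of that list was at 0 in all libraries, and all 17 tested markers were highest in E14.5 replicate 3. Endothelial markers (13 genes) summed to 21.3 to 42.6 CPM in E14.5 cultures, and to 30.6, 1950 and 423 CPM in the adult cultures. Mesothelial markers (9 genes) summed to 191, 879 and 171 CPM in the E14.5 cultures and to 1627, 691 and 855 CPM in the adult cultures. Of 10 lymphocyte markers, Cd3d, Cd8a and Ncr1 were at 0 in all 6 libraries, and the list summed to at most 4.45 CPM in E14.5 cells and 0.644 CPM in adult cells.

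None of the members differed between E14.5 and adult cultures past the test. Of the 33, 31 had enough counts to be tested, and 0 of these 31 passed an adjusted p of 0.05 in edgeR's quasi-likelihood test with Benjamini-Hochberg adjustment over all 13478 tested genes, of which 1.08% passed (0.245% higher and 0.838% lower in E14.5). At an unadjusted p under 0.05 there were 3 members (Oas1a higher, Ifit3 and Ifi35 lower in E14.5), against 17.9% of all genes. DESeq2 called 1 member, Ifit3, lower in E14.5, against 10.6% of all genes in either direction and 5.46% in that one, and limma-voom called 0, against 1.02%. In the edgeR fit, 14 of 25 interferon-induced members had a negative log2 fold change of E14.5 over adult, with a median of -0.27, and 4 of 6 MHC class I members did, with a median of -0.09. Over all tested genes 48.5% were negative and the median was 0.01. Fold changes below come from this edgeR fit unless another is named.

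A single culture held the highest E14.5 value of every tested member. All 31 were highest, among the E14.5 cultures, in replicate 3, where 37.6% of all tested genes were. In 23 of the 31, E14.5 replicate 3 was also the highest of all 6 libraries, against 21.6% of all genes. In the same culture the macrophage and leukocyte markers, as summed CPM, were 8.23 times the mean of the other E14.5 cultures. By the same measure the interferon-induced members were at 2.51 times and the MHC class I members at 1.91 times. B2m makes up most of the class I sum, which was 3.44 times without it. Taken gene by gene, the median ratio was 4.02 for interferon-induced members, 3.77 for MHC class I members and 1.01 for all tested genes. The part of macrophages and leukocytes in the members' levels was not tested. Fewer cells of a type and less RNA per cell cannot be told apart in these bulk libraries. The 8 proliferation markers together had 122, 58.7 and 297 CPM in E14.5 cells and 90.4, 300 and 151 CPM in adult cells, with adult replicate 2 as high as E14.5 replicate 3.

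Without E14.5 replicate 3, 27 of the 31 had a negative log2 fold change, against 50.5% of all genes, and for 22 of the 31 the remaining E14.5 cultures lay below every adult culture, against 19.2% of all genes. These counts, and that of the highest library, were chosen after the values were seen. The culture left out held the highest E14.5 value of all 31 members, but of only 37.6% of all genes. Leaving it out therefore lowers the members' E14.5 level by construction, and the shares over all genes are no like-for-like reference here. In this comparison of 2 with 3 cultures edgeR again called 0 members, against 0.807% of all genes, while 16 members were lower at an unadjusted p under 0.05, against 9.46% of all genes. DESeq2 called 11 interferon-induced members (Irf7, Irf9, Ifih1, Ifit1, Ifit3, Gbp2, Gbp3, Isg15, Usp18, Ifi35 and Xaf1) and 2 MHC class I members (B2m and H2-K1), all lower in E14.5, against 11.4% of all genes in either direction and 6.37% in that one. That DESeq2 comparison was added after the values were seen.

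**Figure D1:**
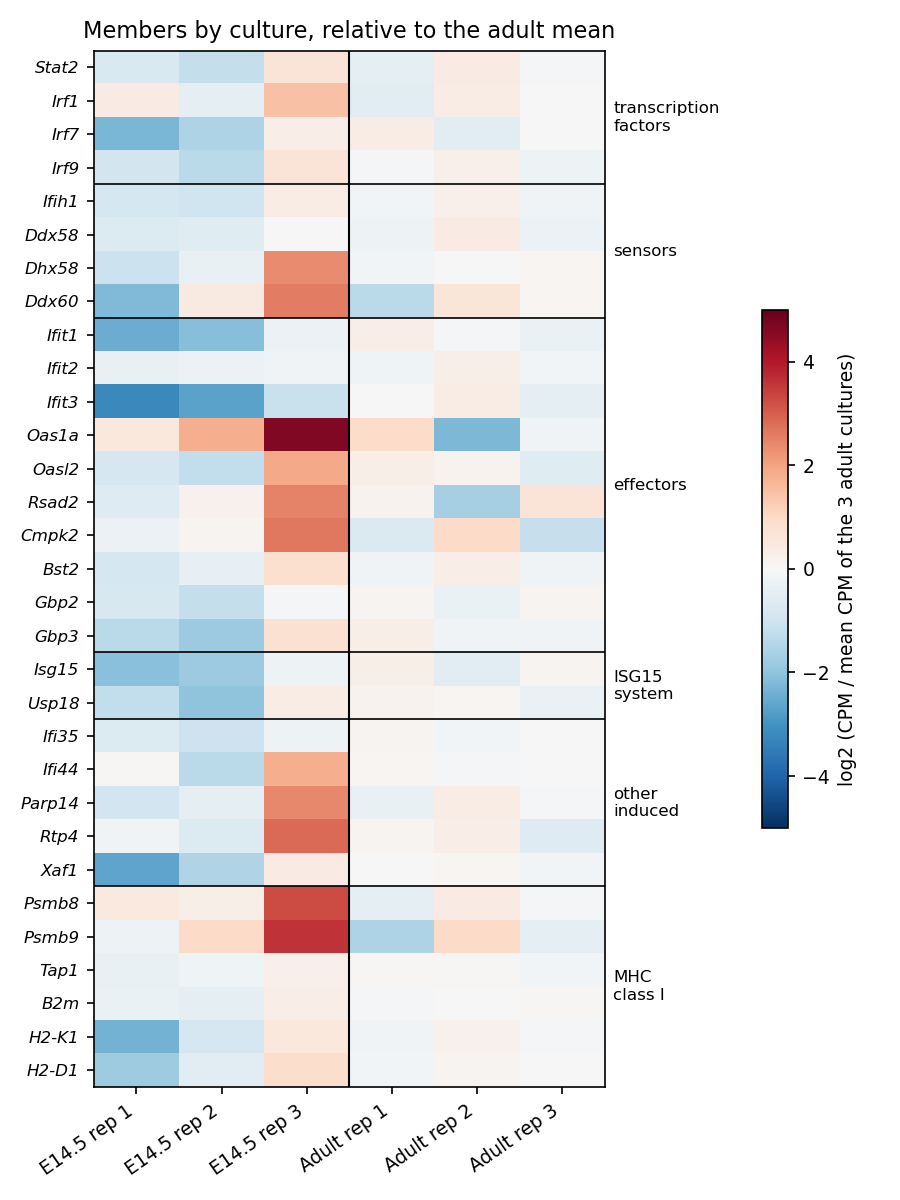
Each tile is the log2 ratio of a member's CPM in 1 culture to its mean over the 3 adult cultures, for the 31 tested members (rows, by role) in the 3 E14.5 and 3 adult cultures (columns). E14.5 replicates 1 and 2 are mostly blue (below the adult mean) and E14.5 replicate 3 is the highest E14.5 culture in all 31 rows.

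The transcription factors showed this pattern. Irf9, the DNA-binding subunit of the complex at the ISRE, had 6.66, 5.00 and 19.8 CPM in the E14.5 cultures, against 12.2, 15.1 and 10.7 CPM in the adult cultures. The adult cultures lay between the lower E14.5 cultures and the high one. Its log2 fold change was -0.27 (SE 0.53, adjusted p = 0.863), and -1.12 (SE 0.26, adjusted p = 0.131) without E14.5 replicate 3. Stat2, the transactivating subunit of the same complex, had 7.91, 5.77 and 20.6 CPM in E14.5 cells and 9.62, 17.7 and 12.4 CPM in adult cells. Its groups overlapped in the same way (log2 fold change -0.21, SE 0.52). Irf7, which drives the production of interferon alpha, had 0.876, 1.46 and 5.28 CPM in E14.5 cells and 5.49, 2.93 and 4.29 CPM in adult cells. Irf1, a factor of the interferon gamma response that also acts on MHC class I and immunoproteasome genes, stood apart from the other factors. It had 7.51, 4.07 and 15.7 CPM in E14.5 cells and 3.86, 7.45 and 5.84 CPM in adult cells, and its log2 fold change was 0.67 (SE 0.53), and 0.02 without E14.5 replicate 3.

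Among the RNA sensors, the more abundant Ddx58 and Ifih1 differed from Dhx58 and Ddx60. Ddx58, which encodes the helicase RIG-I that detects viral RNA ends, had 27.4, 28.9 and 44.7 CPM in E14.5 cells and 36.8, 59.0 and 36.3 CPM in adult cells. Its highest library was adult replicate 2, as for 3 of the 31 tested members and 2334 of all 13478 tested genes. That culture also had the highest endothelial marker sum, and a link between the 2 was not tested. The log2 fold change of Ddx58 was -0.38 (SE 0.28, adjusted p = 0.555). Ifih1, the gene of MDA5, a sensor of long double-stranded RNA, had 6.91, 6.45 and 16.4 CPM in E14.5 cells and 11.6, 15.2 and 11.4 CPM in adult cells (log2 fold change -0.36, SE 0.40). Dhx58, whose product LGP2 modulates both sensors, had 0.438, 0.714 and 4.76 CPM in E14.5 cells and 0.833, 0.944 and 0.984 CPM in adult cells. Here 1 E14.5 culture lay far above a tight adult group, and the log2 fold change was 1.10 (SE 0.92), and -0.67 without that culture. Ddx60, a helicase gene of the same response, was rare, with 2, 13 and 56 counts in E14.5 cells and 3, 9 and 9 counts in adult cultures.

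The effectors held the largest fitted differences in both directions. Ifit3 belongs to a family whose products bind viral RNA, and it had 0.938, 1.37 and 4.05 CPM in E14.5, against 8.56, 11.4 and 6.26 CPM in adult cells. All E14.5 cultures lay below all adult cultures, which held for 12.0% of all tested genes in this direction. Its level was 4.11 times higher in adult cultures, a log2 fold change of -2.04 (SE 0.61, 95% interval -3.51 to -0.57, unadjusted p = 0.014, adjusted p = 0.157). DESeq2 gave an adjusted p of 0.0099, and without E14.5 replicate 3 edgeR gave a log2 fold change of -2.91 and an adjusted p of 0.056. Ifit3 lies on chromosome 19 of GRCm38 from 34583531 to 34588731 on the plus strand. Reads that match both Ifit3 and its near copy Ifit3b are not counted, so its level is uncertain. Ifit3b (tabled as I830012O16Rik) had 0.188, 0.124 and 0.896 CPM in E14.5 cells and 1.48, 1.59 and 1.62 CPM in adult cells.

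Ifit1 and Ifit2, of the same cluster, did not match Ifit3 in size. Ifit1 had 0.532, 0.683 and 2.44 CPM in E14.5 cells and 3.67, 2.83 and 2.36 CPM in adult cells, so the groups touched only through E14.5 replicate 3 (log2 fold change -1.27, SE 0.64, adjusted p = 0.376). Ifit2 varied least among the E14.5 cultures, with 17.9, 19.0 and 20.7 CPM, against 19.9, 28.6 and 20.9 CPM in adult cells. Its 95% interval for the log2 fold change was -0.69 to 0.16.

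Bst2 encodes tetherin, which holds budding virus at the cell surface. It had 16.1, 22.2 and 51.3 CPM in E14.5 cells and 26.0, 36.8 and 26.1 CPM in adult cells, with close group means of 29.9 ± 18.8 and 29.6 ± 6.20 CPM (SD, n = 3 each). Gbp2, for a guanylate-binding GTPase, had 7.82, 5.93 and 12.7 CPM in E14.5 cells and 15.2, 10.9 and 15.0 CPM in adult cells (log2 fold change -0.64, SE 0.32). Gbp3, its neighbour on chromosome 3, averaged 1.80 ± 1.77 CPM in E14.5 cells and 2.28 ± 0.419 CPM in adult cells (SD, n = 3 each).

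Oas1a, whose family makes the 2′-5′ oligoadenylates that activate RNase L, lay on the other side. It had 0.344, 0.838 and 5.87 CPM in E14.5, against 0.454, 0.0497 and 0.211 CPM in adult cells. E14.5 replicate 1 lay within the adult range, so the groups overlapped. The log2 fold change of 3.24 was the largest of the members (SE 1.26, unadjusted p = 0.040, adjusted p = 0.253) and was 1.26 (SE 0.86) without E14.5 replicate 3. The adult value rests on 12, 1 and 6 counts. Oasl2, a relative of Oas1a, Rsad2 (viperin, which makes a chain-terminating nucleotide) and its neighbour Cmpk2 (a nucleotide kinase gene) were likewise highest in E14.5 replicate 3, at 9.55, 3.55 and 1.92 CPM. In the 5 other libraries they had 1.09 to 3.14, 0.199 to 0.984 and 0.141 to 0.596 CPM. Their log2 fold changes of 0.65, 1.28 and 1.47 became -1.02, -0.16 and -0.01 without that culture.

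Mx1 and Mx2 belong to a family of dynamin-like GTPases that block viral replication where they are intact, and were too low to test. Many inbred mouse strains, C57 strains among them, carry defective alleles of both, and GENCODE M21 lists Mx2 as a polymorphic pseudogene. Mx1 had 5, 7 and 52 counts in E14.5 cells and 3, 0 and 0 counts in adult cultures, and Mx2 had 1, 2 and 21 counts in E14.5 cells and 0, 3 and 5 counts in adult cultures. Most reads of both genes came from E14.5 replicate 3. All E14.5 values of Mx1 lay above all adult values, while 0 of the 31 tested members did so, against 12.1% of all tested genes.

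Both genes of the ISG15 system had lower values in E14.5 replicates 1 and 2 than in any adult culture. Isg15, a ubiquitin-like protein joined to other proteins after interferon, had 1.19, 1.46 and 4.20 CPM in E14.5 cells and 6.28, 3.43 and 5.52 CPM in adult cells. Only the high E14.5 culture reached the adult range (log2 fold change -1.15, SE 0.56, adjusted p = 0.359). Usp18, which removes ISG15 and restrains the type I receptor, had 0.907, 0.528 and 2.78 CPM in E14.5 cells and 2.42, 2.28 and 1.69 CPM in adult cells (log2 fold change -0.60, SE 0.64).

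Ifi35 was, beside Ifit3, the other tested member without overlap, making 2 of 31 lower in this way, against 12.0% of all tested genes. This gene for an interferon-induced leucine zipper protein had 16.0, 12.5 and 21.4 CPM in E14.5, against 28.1, 23.3 and 25.7 CPM in adult cells, and its log2 fold change was -0.63 (SE 0.22, unadjusted p = 0.025, adjusted p = 0.205). Parp14, an ADP-ribosyltransferase gene, had 2.31, 3.32 and 23.5 CPM in E14.5 cells and 3.52, 5.81 and 4.15 CPM in adult cells. The mean of the E14.5 group, 9.70 ± 11.9 CPM (SD, n = 3), therefore rests on 1 culture. Rtp4, for a receptor chaperone, and Ifi44, for an interferon-induced cytoplasmic protein, had the same form, with 7.04 and 11.0 CPM in E14.5 replicate 3 and 0.621 to 3.33 CPM in all other libraries. Xaf1, whose product promotes apoptosis, had 0.500, 1.09 and 4.14 CPM in E14.5 cells and 3.18, 3.28 and 2.85 CPM in adult cells (log2 fold change -0.70, and -1.96 without E14.5 replicate 3).

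**Figure D2:**
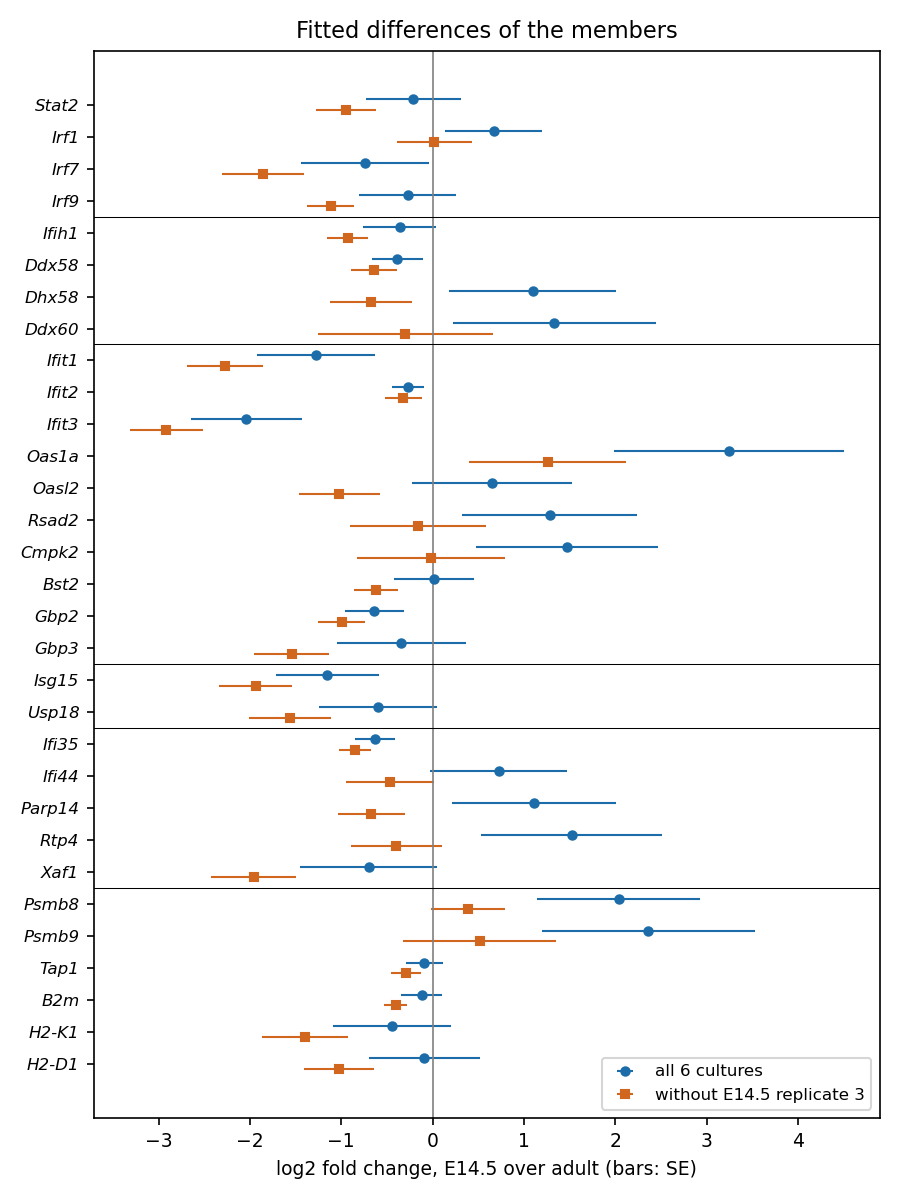
Points are log2 fold changes of E14.5 over adult with their SE (bars) for the 31 tested members, from all 6 cultures (blue circles) and without E14.5 replicate 3 (orange squares). All orange points lie left of the blue ones, as for Ifit3 at -2.91 against -2.04 and Oas1a at 1.26 against 3.24. This shift follows from leaving out the culture with the highest E14.5 value of every tested member.

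MHC class I genes were expressed in both groups, and none of the 6 passed the test. B2m lies on chromosome 2 of GRCm38 (122147686 to 122153083), and the other members lie in the histocompatibility region of chromosome 17, from H2-K1 (starting at 33996017) to H2-D1 (ending at 35267499). B2m, the invariant light chain of class I, had 337, 299 and 528 CPM in E14.5 cells and 400, 424 and 440 CPM in adult cells. The adult values lay inside the range of the E14.5 values, with a log2 fold change of -0.12 (SE 0.23, 95% interval -0.67 to 0.43). H2-K1 and H2-D1 encode classical class I heavy chains. H2-K1 had 7.57, 21.9 and 56.0 CPM in E14.5 cells and 34.1, 44.8 and 37.5 CPM in adult cells (log2 fold change -0.45, SE 0.65). H2-D1 had 14.1, 33.9 and 89.6 CPM in E14.5 cells and 44.1, 54.1 and 48.2 CPM in adult cells (log2 fold change -0.09, SE 0.61). Both heavy chains ranked the E14.5 cultures alike and varied little among adults. Class I genes are near copies of each other and reads shared between them are not counted, so the heavy-chain levels are uncertain.

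The genes that supply peptides split. Tap1, a subunit of the peptide transporter into the endoplasmic reticulum, had 11.3, 12.4 and 17.1 CPM in E14.5 cells and 15.1, 15.2 and 13.2 CPM in adult cells (log2 fold change -0.09, 95% interval -0.58 to 0.40). Psmb8 and Psmb9 encode catalytic subunits of the immunoproteasome, the form of the proteasome that favours peptides for class I. Psmb8 had 2.28, 2.02 and 16.0 CPM in E14.5 cells and 1.17, 2.19 and 1.58 CPM in adult cells (log2 fold change 2.04, SE 0.89, adjusted p = 0.306). Psmb9 had 0.281, 0.652 and 4.14 CPM in E14.5 cells and 0.114, 0.646 and 0.246 CPM in adult cells (log2 fold change 2.36, SE 1.16, adjusted p = 0.366). In both, E14.5 replicate 3 lay far above every other library, and the log2 fold changes without it were 0.39 and 0.51.

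Psmb9 and Tap1 are transcribed away from each other, and 225 bases separate their RefSeq starts. This shared stretch is shown because the transcripts it starts were 8.87 times (Psmb9) and 1.45 times (Tap1) their mean of the other E14.5 cultures in replicate 3. It lies at chr17:34187331-34187555 on GRCm38.p6 and is given on the plus strand, that of Tap1, and holds no ISRE core.
Tap1-Psmb9: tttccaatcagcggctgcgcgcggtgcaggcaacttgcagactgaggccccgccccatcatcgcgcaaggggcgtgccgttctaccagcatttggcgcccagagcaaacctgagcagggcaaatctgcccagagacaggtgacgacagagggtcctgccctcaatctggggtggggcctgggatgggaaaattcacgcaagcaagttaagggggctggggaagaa

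**Figure D3:**
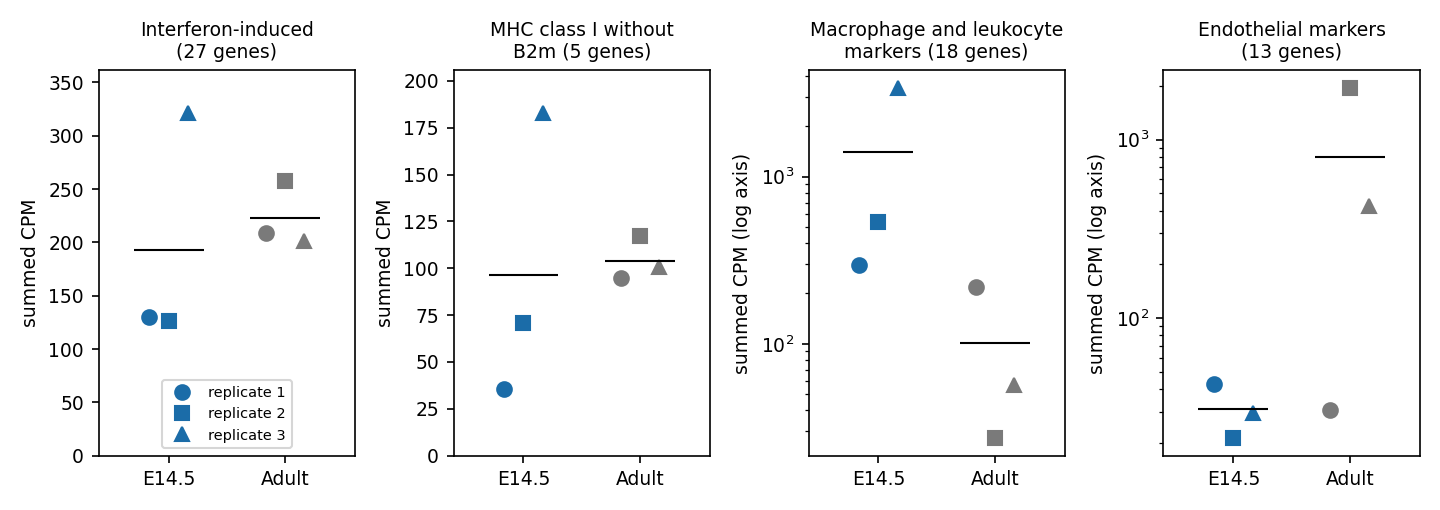
Points are summed CPM of 4 gene lists in each culture, with E14.5 on the left and adult on the right of each panel and lines at the group means (log axes for the marker lists). E14.5 replicate 3 (triangle) is highest for the interferon-induced members (321 CPM), the MHC class I members without B2m (183 CPM) and the macrophage and leukocyte markers (3402 CPM).

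As sums, the 27 interferon-induced members came to 130, 127 and 321 CPM in E14.5 cells and 209, 257 and 202 CPM in adult cells. The 6 MHC class I members summed to 372, 370 and 711 CPM in E14.5 cells and 495, 541 and 541 CPM in adult cells, and without B2m to 35.5, 70.8 and 183 CPM and to 94.6, 117 and 101 CPM in the same groups. Each pair of group means differed by less than the spread of the E14.5 cultures, for example 193 ± 111 CPM in E14.5 cells and 223 ± 30.3 CPM in adult cells for the interferon-induced members (SD, n = 3 each).

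Level per length ordered the members over a wide range. Divided by exon length in kilobases (GENCODE M21), B2m came first at 451 CPM per kb in E14.5 cells and 490 CPM per kb in adult cultures. Bst2 followed at 37.7 and 37.4 CPM per kb in E14.5 and adult cells, H2-D1 at 21.8 and 23.2, H2-K1 at 17.2 and 23.5, and Ifi35 at 12.2 and 18.9. Ddx60, Mx1 and Mx2 were at the bottom with 0.102 to 0.195 CPM per kb in E14.5 cells and 0.0112 to 0.0447 CPM per kb in adult cultures.

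**Figure D4:**
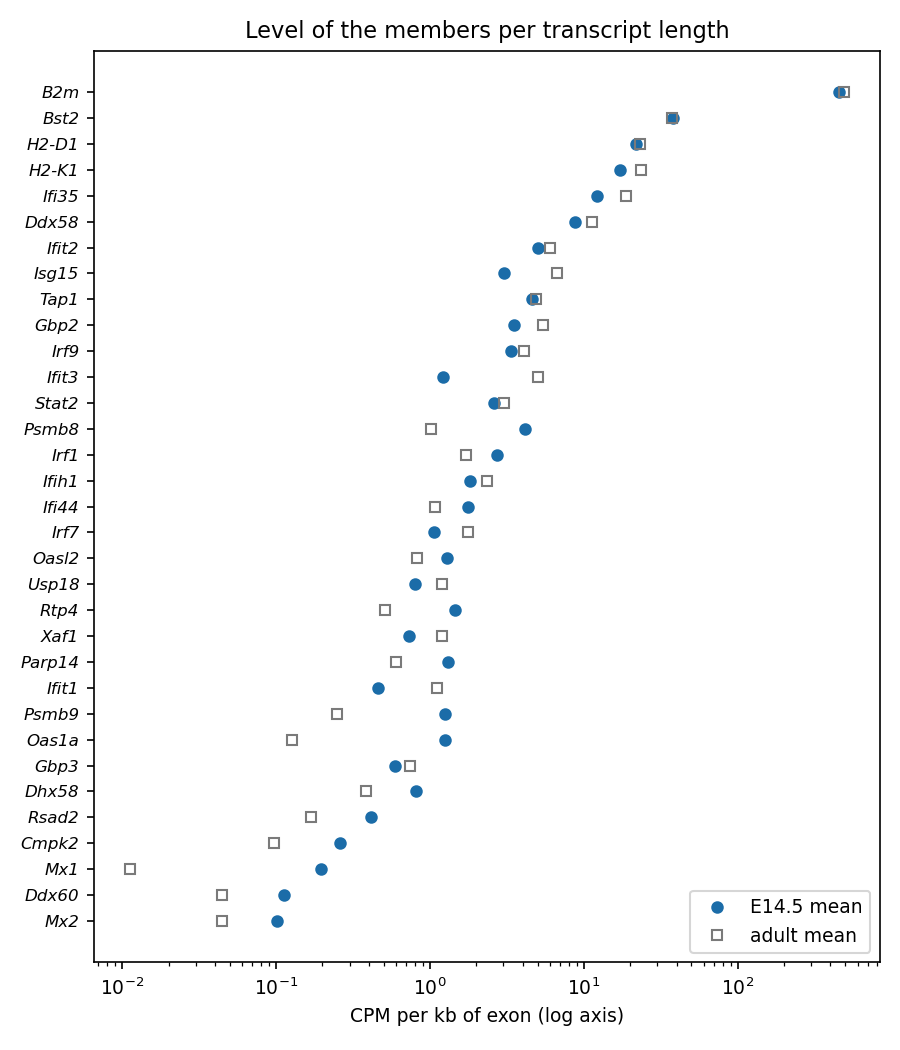
Group means of CPM per kb of exon (log axis) for all 33 members, with E14.5 as filled circles and adult as open squares, ordered by the mean of all 6 libraries. B2m lies at 451 (E14.5) and 490 (adult), and the low end of the order holds Mx2, Ddx60 and Mx1.

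The members varied far more between E14.5 cultures than typical genes did. The median SD of log2 CPM was 1.15 between E14.5 cultures and 0.36 between adult cultures for the interferon-induced members, and 1.39 and 0.17 for the MHC class I members in the same groups. Over all tested genes it was 0.30 in E14.5 cells and 0.19 in adult cultures. In E14.5, 24 of 25 interferon-induced and 6 of 6 MHC class I members lay above the median of all genes, and in adults 21 and 3 did. The SD was larger in E14.5 than in adult cultures for 23 of 25 interferon-induced and 6 of 6 MHC class I members. It was so for 9418 of all 13478 tested genes too. E14.5 replicate 3, the highest E14.5 culture of every tested member, enters the E14.5 spread. Low counts also raise this SD.

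**Figure D5:**
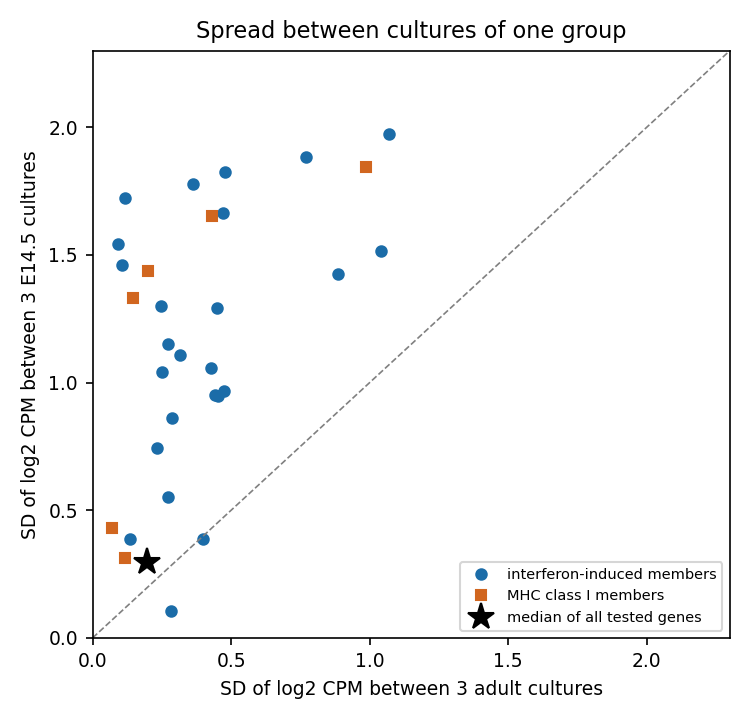
Each point is a tested member, with the SD of log2 CPM between the 3 E14.5 cultures on the vertical and between the 3 adult cultures on the horizontal axis, and the dashed line marks equal values. Most members lie above the line and above the star, the median of all tested genes (0.30 in E14.5 cells and 0.19 in adult cultures). Of all 13478 tested genes, 9418 also had the larger SD in E14.5.

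Sample titles carry 1 of 3 prefixes, each shared by the E14.5 and the adult library with the same replicate number here, with no meaning given in the labels. Compared within a prefix, 23 of 25 interferon-induced members were lower in E14.5 than in adult for replicate 1 and again for replicate 2, with median log2 differences of -0.74 and -0.97, and 5 of 25 were lower for replicate 3, with a median of 0.89. The MHC class I members had median differences of -0.33, -0.40 and 0.74 in the same order. Over all tested genes 50.1%, 51.5% and 48.4% were lower in the same order, and the medians were close to 0, from -0.02 to 0.02. The members' direction thus differed in the prefix that holds E14.5 replicate 3, their highest E14.5 culture. That repeats the pattern given above and is no further result about the prefixes.

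The receptor side of the pathway was present in both groups while the interferon genes themselves had almost no counts. Of 21 interferon genes, 17 had no count in any library, Ifnb1 and Ifng among them, and the others had 19 counts in all. Reads that align to more than 1 place are not counted, so reads shared between interferon genes would be missed. Ifnz had 5, 2 and 4 counts in E14.5 cells and 1, 2 and 2 counts in adult cultures, and Ifnab had 1 count in all. Of 11 tested receptor, kinase and STAT genes, 0 passed the edgeR test (0 below 0.05 before adjustment, with 0 called by DESeq2 and 0 by limma-voom). Over all genes 17.9% were below 0.05 before adjustment and DESeq2 called 10.6%. Jak1, a kinase of all interferon receptors, had 217, 210 and 210 CPM in E14.5 cells and 254, 234 and 261 CPM in adult cells (log2 fold change -0.23, adjusted p = 0.296). Stat3 had 170, 161 and 144 CPM in E14.5 cells and 260, 184 and 183 CPM in adult cells.

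In the list of feedback inhibitors, 1 of 12 tested genes, Socs2, passed the edgeR test, against 1.08% of all genes. DESeq2 called 2, Socs2 lower and Ptpn6 higher in E14.5, against 10.6% of all genes. Socs2, better known as a brake on growth hormone signalling, had a log2 fold change of -2.09 (SE 0.27, edgeR adjusted p = 0.036), with 12.4, 20.4 and 21.97 CPM in E14.5 cells and 76.4, 61.4 and 94.6 CPM in adult cells. The groups did not overlap, as for 12.0% of all tested genes in this direction. The call was lost without E14.5 replicate 1 or 3 or without any 1 adult culture, with adjusted p from 0.057 to 0.165. Ptpn6, for the phosphatase SHP-1 of blood cells and named after its values were seen, had 6.97, 8.66 and 55.2 CPM in E14.5 cells and 1.86, 0.348 and 0.773 CPM in adult cells. The groups did not overlap, as for 12.1% of all tested genes in this direction. Ptpn6 was again highest in E14.5 replicate 3, the culture highest in macrophage and leukocyte markers. Its log2 fold change was 4.55 (SE 1.09), with an adjusted p of 0.116 in edgeR and 1.2e-05 in DESeq2. The part of those cells in it was not tested. Ptpn11 and Ptpn1, the most abundant phosphatase genes of that list, had log2 fold changes of 0.02 and 0.25.

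Other interferon-induced genes, on a wider list of 68 symbols, gave 2 calls, both lower in E14.5, among 52 tested, against 1.08% of all genes. Of the 52, 37 had a negative log2 fold change, against 48.5% of all genes, and the median was -0.42. DESeq2 called 7 lower and 2 higher (Epsti1 and Slfn2), against 10.6% of all genes in either direction. Without E14.5 replicate 3, 49 of 54 were negative, against 50.5% of all genes. That culture was the highest E14.5 culture for 40 of the 52, against 37.6% of all genes, so leaving it out favours negative values. The edgeR calls were then 3 others, against 0.807% of all genes. All were lower in E14.5, with adjusted p of 0.025 for Sp100, 0.034 for Ifi27l1 and 0.036 for Lgals3bp. DESeq2 then called 22 lower and 2 higher, against 6.37% of all genes lower and 11.4% in either direction. Isg20, an exonuclease gene, fell by 2.13 (SE 0.32, adjusted p = 0.044), with 1.69, 3.10 and 1.95 CPM in E14.5 cells and 9.46, 8.44 and 11.6 CPM in adult cells. Ifi47, for an immunity-related GTPase, fell by 0.90 (SE 0.13, adjusted p = 0.041), with 15.0, 14.4 and 13.3 CPM in E14.5 cells and 26.1, 29.1 and 24.5 CPM in adult cells. In both, E14.5 replicate 3 lay within or below the values of the other E14.5 cultures, unlike in the 31 members, where it was the highest of the 3. Both calls were lost without E14.5 replicate 1 or 3 or any 1 adult culture, with adjusted p of 0.088 to 0.236 for Isg20 and 0.081 to 0.184 for Ifi47. Irgm1, a related GTPase gene and one of the most abundant of the list, had 107, 90.6 and 105 CPM in E14.5 cells and 152, 183 and 167 CPM in adult cells (log2 fold change -0.73, SE 0.12, adjusted p = 0.062). Lgals9, for galectin 9, had a log2 fold change of -0.22.

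Genes of nucleic acid sensing gave 0 calls among 20 tested in edgeR and 0 in limma-voom. Before adjustment 5 were below 0.05 (2 higher and 3 lower in E14.5), against 17.9% of all genes, and DESeq2 called 4, against 10.6%. These were the receptor genes Tlr7 and Tlr9 (higher) and Tlr4 and Samhd1 (lower), the first 3 named after their values were seen. Tlr7, a sensor of single-stranded RNA, had 4.13, 5.28 and 30.8 CPM in E14.5 cells and 2.42, 0.149 and 0.703 CPM in adult cells, highest again in E14.5 replicate 3. Tlr9, a sensor of bacterial DNA, was rare, with at most 4.57 CPM in E14.5 cells and 0.176 CPM in adult cells. Tlr4, the receptor of bacterial lipopolysaccharide, had 12.1, 15.0 and 25.8 CPM in E14.5 cells and 40.4, 34.0 and 41.3 CPM in adult cells. Its log2 fold change was -1.13 (adjusted p = 0.130), and -1.51 (edgeR adjusted p = 0.043) without E14.5 replicate 3. That culture held the highest E14.5 value of Tlr4, so leaving it out lowers the E14.5 level by construction. The fit without it called 0.807% of all genes. Samhd1, which degrades nucleotides needed by viruses, had 99.4, 84.1 and 99.9 CPM in E14.5 cells and 165, 135 and 149 CPM in adult cells (log2 fold change -0.67, SE 0.13, adjusted p = 0.078). Its groups did not overlap, as for 12.0% of all tested genes in this direction. Adar, an RNA-editing enzyme gene, had a log2 fold change of -0.06.

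Other class I genes gave 0 calls among 8 tested (2 below 0.05 before adjustment, both lower in E14.5 and both called by DESeq2, with 0 by limma-voom). Over all genes 17.9% were below 0.05 before adjustment and DESeq2 called 10.6%. Fcgrt, the heavy chain of the neonatal Fc receptor, had 23.9, 29.1 and 40.7 CPM in E14.5 cells and 81.5, 63.1 and 79.7 CPM in adult cells (log2 fold change -1.26, adjusted p = 0.067). Mr1, which presents microbial metabolites, had 8.82, 9.40 and 17.2 CPM in E14.5 cells and 38.0, 29.7 and 29.8 CPM in adult cells (log2 fold change -1.46, adjusted p = 0.089). Without E14.5 replicate 3, the highest E14.5 culture of both, their edgeR adjusted p was 0.045 and 0.031. That fit called 0.807% of all genes.

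Class I loading and proteasome genes gave 0 calls among 18 tested (1 below 0.05 before adjustment and called by DESeq2, Tap2, lower in E14.5, with 0 by limma-voom). The shares of all genes, here and for class II, were 17.9% before adjustment and 10.6% in DESeq2. The chaperone genes Calr and Pdia3 had log2 fold changes of 0.17 and 0.09. Of 12 class II genes only 4 had enough counts, and 0 of these passed (2 below 0.05 before adjustment and called by DESeq2, H2-DMa higher and H2-DMb1 lower in E14.5, with 0 by limma-voom). H2-DMb1 and H2-DMa encode the chains of the peptide exchanger of class II. H2-DMb1 had 2.63, 5.34 and 4.36 CPM in E14.5 cells and 19.3, 8.74 and 16.5 CPM in adult cells, and H2-DMa had 7.38, 10.9 and 7.60 CPM in E14.5 cells and 5.11, 4.57 and 3.52 CPM in adult cells.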

How the data were processed

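RNA was measured in 6 libraries (3 E14.5, 3 adult) from stranded poly(A) RNA, read over 75 bp from a single end, per the labels' protocols. Each library has 1 table of raw read counts by gene, as deposited. Reads were aligned with STAR to mm10, per the submitters' processing notes. No source used here gives the STAR version or the annotation. The reverse-strand column was used, since forward-strand counts were 1.33% to 1.69% of stranded gene counts. The 4 rows that name no gene (unmapped, multimapping, unassigned, ambiguous; 17.4% to 19.8% of counted reads) entered neither library sizes nor tests.

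Genes were kept by filterByExpr, scaled by TMM and tested with edgeR 4.0.16 (quasi-likelihood, robust) in R 4.3.3, E14.5 over adult, with Benjamini-Hochberg adjustment over 13478 genes at 0.05. Each SE is the log2 fold change divided by the square root of F, and intervals at 95% follow from it. Both are approximate. CPM was computed here on TMM-scaled library sizes, and log2 CPM used a prior count of 2. Alternatives were DESeq2 1.42.0, limma-voom (limma 3.58.1), other scalings and filters, the unstranded column, the title prefix as a block and libraries left out. The steps were tested on simulated data. Replicates were numbered in accession order. Positions are from GENCODE M21 and RefSeq on GRCm38, the assembly mm10 names.

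The members, lists and role groups were chosen with earlier results of these data known. Named genes were all members, and of each wider list the largest calls and the 2 most abundant genes. Values per library were given for all MHC class I members, members without overlap and the 2 most abundant interferon-induced members per role, and for others chosen after their values were seen. A few listed genes are not reported here.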

Additional observations from a re-analysis of the deposited data

How the results depend on the processing

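No member passed in edgeR under any scaling, filter, count column or set of libraries tried, nor in limma-voom, and the lowest adjusted p among these fits was 0.056, for Ifit3 without E14.5 replicate 3. DESeq2 called 1 interferon-induced member with all libraries, and 11 interferon-induced and 2 MHC class I members without E14.5 replicate 3. Over all genes edgeR called 146, DESeq2 1427 and, without E14.5 replicate 3, 1574. Without 1 library at a time edgeR called 3 (without E14.5 replicate 1 or adult replicate 3) to 471 (without E14.5 replicate 2), and without both E14.5 replicate 3 and adult replicate 2 it called 36. The title prefix as a replicate block left 2 calls, and libraries sharing a prefix did not deviate together (r of -0.14, -0.23 and -0.09). The cause of these shifts was not tested.

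The median log2 fold change without 1 library ran from -0.85 to 0.07 for interferon-induced and from -0.35 to 0.17 for MHC class I members. Other scalings, filters and the unstranded column turned no member, and the stricter filter tested 25 members. Bst2 turned to -0.13 in limma-voom, and Bst2 and Oasl2 to -0.16 and -0.12 with the block. Without both libraries the log2 fold change was -0.66 for Dhx58, -0.94 for Oasl2, -0.57 for Rsad2, -0.44 for Bst2, -0.52 for Ifi44, -0.45 for Parp14 and -0.21 for Rtp4. In edgeR without 1 library, the members that turned ran from -0.95 to 0.11 for Stat2, -1.12 to 0.066 for Irf9, -0.67 to 1.55 for Dhx58, -0.30 to 1.86 for Ddx60, -1.02 to 1.10 for Oasl2, -0.16 to 1.74 for Rsad2, -0.012 to 2.31 for Cmpk2, -0.62 to 0.30 for Bst2, -1.54 to 0.055 for Gbp3, -0.47 to 1.19 for Ifi44, -0.67 to 1.56 for Parp14, -0.40 to 2.00 for Rtp4, -0.29 to 0.016 for Tap1, -0.40 to 0.038 for B2m and -1.02 to 0.33 for H2-D1. DESeq2 without E14.5 replicate 3 gave -0.66 for Dhx58, -0.30 for Ddx60, -1.01 for Oasl2, -0.14 for Rsad2, -0.017 for Cmpk2, -0.61 for Bst2, -0.46 for Ifi44, -0.65 for Parp14 and -0.38 for Rtp4. Mx1, Mx2, Ddx60, Oas1a and Psmb9 rest on few reads, so their folds are the least precise.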

Other observations

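Further genes of peptide supply were looked at after their values were seen, so they are given as values. Tap2, the partner of Tap1 in the peptide transporter, had 1.34, 3.10 and 8.10 CPM in E14.5 cells and 15.6, 18.7 and 15.2 CPM in adult cells. All E14.5 cultures lay below all adult cultures, as for 12.0% of all tested genes. The log2 fold change of Tap2 was -1.98 (SE 0.62, adjusted p = 0.174 in edgeR and 0.013 in DESeq2), while Tap1 had one of -0.09. The constitutive proteasome subunits that Psmb8 and Psmb9 replace, Psmb5 and Psmb6, had 32.5, 37.8 and 33.1 CPM and 133, 142 and 125 CPM in E14.5, and 28.2, 31.9 and 30.1 CPM and 117, 103 and 117 CPM in adult cells. Both were higher in every E14.5 culture than in any adult culture, which held for 12.1% of all tested genes. Among the 18 tested loading and proteasome genes, 3 lay higher and 1 lower without overlap. The log2 fold changes of Psmb5 and Psmb6, 0.20 and 0.25, did not pass the edgeR test (adjusted p = 0.455 and 0.306).

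Ifitm3, which blocks virus entry at endosomes, had 98.9, 54.7 and 128 CPM in E14.5 cells and 226, 131 and 163 CPM in adult cells (log2 fold change -0.88, adjusted p = 0.262). Nlrc5, the transactivator of MHC class I genes, had 0.500, 0.683 and 3.28 CPM in E14.5 cells and 0.681, 0.844 and 0.563 CPM in adult cells, high in the same E14.5 culture as the MHC class I members.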
